A study of Mus musculus with 27 samples.

Results

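The comparison described here is between the 5 *Shank2* homozygous mice (W3-HM) and the 5 wild-type mice (W3-WT) sequenced at 3 weeks of age, 10 of the 27 mice of the series. It covered the 17051 genes, of 18757 in the deposited table, whose mean normalized count over these 10 mice was at least 10. All mice were male, carried as labelled a C57BL/6 strain background, and gave 1 library each from the medial prefrontal cortex, without pooling. W3-HM mice carry on both copies of *Shank2* an allele without exons 6 and 7, in the line B6N.129S4-Shank2 tm1Mgle/CsbdJ, as a germline deletion. W3-WT mice carry 2 intact copies. The 5 heterozygous mice of this age (W3-HT) entered the fit to estimate the spread between mice, and their own values are given only side by side at the end. The homozygous (W12-HM) and wild-type (W12-WT) mice of 12 weeks, 4 of each, are other animals whose values are set beside those of 3 weeks. The 4 heterozygous mice of 12 weeks (W12-HT) entered the fit of all mice and the change with age of one gene list.

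Shank2 is a scaffold of the postsynaptic density of excitatory synapses. Through its PDZ domain it binds SAPAP proteins, which connect it to PSD-95 and the NMDA receptor, and through a proline-rich stretch it binds Homer, which connects it to metabotropic glutamate receptors. The third postnatal week of the mouse cortex is a time of synapse addition, of the maturation of parvalbumin interneurons and of myelination. Genes of these processes are therefore listed beside the glutamate receptors and scaffolds.

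The value of a gene is the normalized count that the authors deposited. Totals per mouse were 29.61 to 30.87 in units of 1e+06, but these follow the normalization, so the depth of each library is unknown and the precision given is the spread between mice. Genes that define the cortex, picked outside the rule for named genes, were present in all 10 mice. *Slc17a7*, the vesicular glutamate transporter of cortical excitatory neurons, lay at 46155 to 55964 in W3-WT and 45998 to 57205 in W3-HM, and *Gad2*, a GABA-synthesizing enzyme, at 4576 to 5332 and 4447 to 5250.4. Genes of the neighbouring striatum varied between mice of 1 genotype. The summed count of 17 striatal genes ran from 16122 to 41868 in W3-WT and from 18590.4 to 39163 in W3-HM, and its part in the results below was not tested.

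Of the 17051 genes, 13 passed an adjusted *p* value of 0.05 (0.0762% of the genes tested), 4 of them higher in W3-HM (0.0235%) and 9 lower (0.0528%). Here and below, the test is limma on log2 of the normalized count plus 1, two-sided, with Benjamini–Hochberg adjustment over all 17051 genes, and a log2 fold change is on this scale as W3-HM minus W3-WT. The genes that were higher were *Gm26793*, *Hrk*, *Rxfp1* and *Nfib*. The genes that were lower were *Shank2*, *Krt80*, *Mt2*, *Klhdc7a*, *Grm2*, *Mt1*, *Ccnd1*, *Aldh1a1* and *Lynx1*. Apart from *Gm26793* and *Shank2*, their log2 fold changes lay between -0.75 and 0.41. For all 13 no W3-HM mouse lay among the W3-WT mice, so that the two-sided exact permutation test gave for each its smallest possible value, 0.00794. The 13 genes were picked by their *p* values on these same mice, so this value is not separate support for them. Over all genes tested, 0.545% had every W3-HM mouse above every W3-WT mouse and 0.604% every W3-HM mouse below. The number of genes past the threshold rested on single mice. It was 5, 7, 4 or 8 without W3-WT replicate 1, 2, 3 or 5, 6 without W3-HT replicate 2, 2, 6 or 6 without W3-HM replicate 2, 3 or 4, and 2 when only the W3-WT and W3-HM mice were fitted. *Shank2* and *Gm26793* passed in all 15 fits that left out 1 mouse, *Lynx1* in 14, *Hrk* in 13, *Mt2* in 10, *Klhdc7a* in 9, *Ccnd1* in 7, *Krt80* and *Nfib* in 6, *Mt1* and *Rxfp1* in 5, and *Grm2* and *Aldh1a1* in 4.

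**Figure D1:**
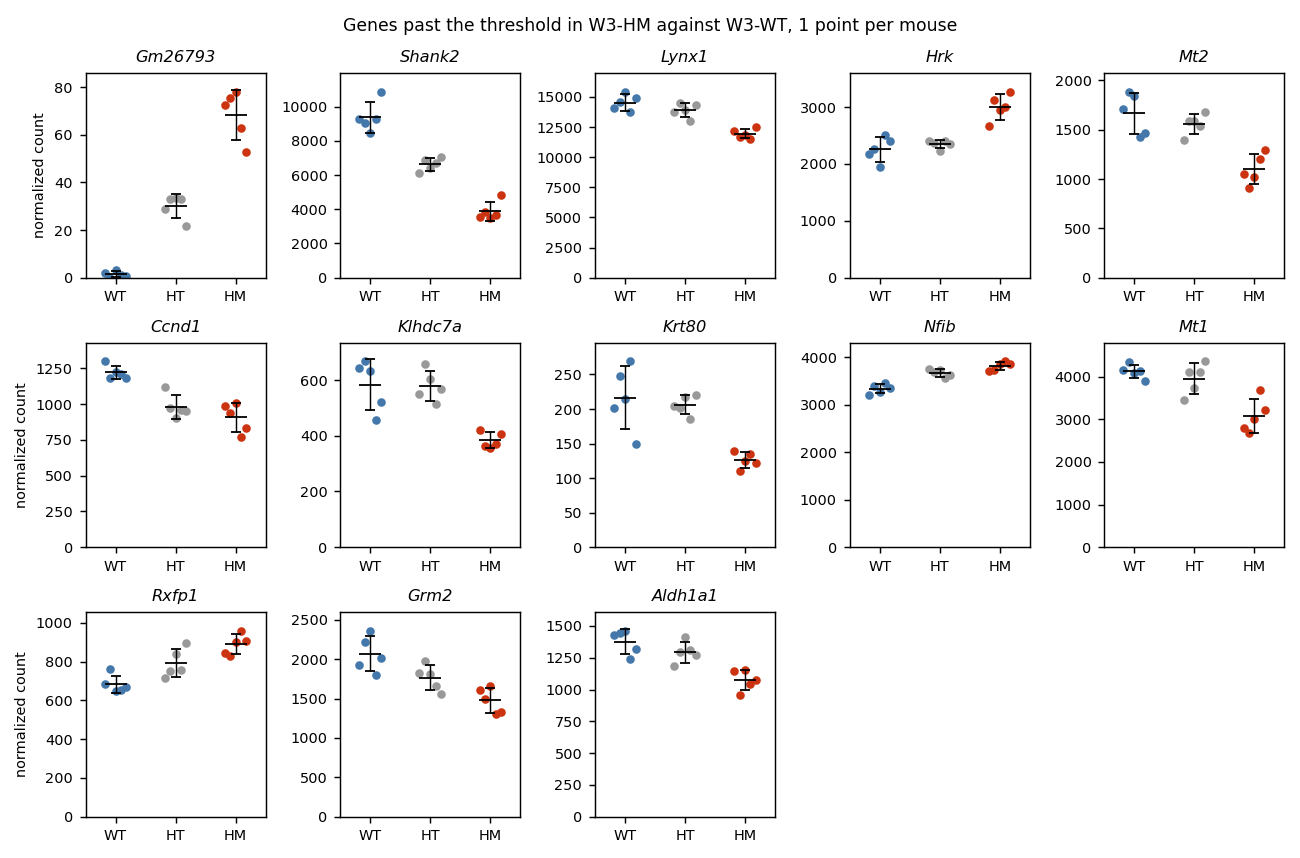
Normalized counts of the 13 genes past the threshold, with 1 point per mouse, the 5 W3-WT mice in blue, the 5 W3-HT mice in grey and the 5 W3-HM mice in red; the black bars are the mean and SD, and every axis starts at 0. In each panel the W3-HM points lie wholly on one side of the W3-WT points, and for *Gm26793* and *Shank2* the W3-HT points lie between the 2 groups.

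*Shank2* (chromosome 7, 144001928 to 144424494, plus strand, GRCm38) was measured at 9261, 9033, 8478, 9257 and 10870.2 normalized counts in the W3-WT mice and at 3567, 3869, 3502, 3663 and 4838 in the W3-HM mice. The groups stood far apart, and 1 W3-HM mouse, replicate 5, stood above the other 4. The mean was 9379.7 ± 892 (SD, n = 5) in W3-WT and 3888 ± 549 (SD, n = 5) in W3-HM, a log2 fold change of -1.28 (SE 0.08, adjusted *p* = 6.92e-08). These are totals per gene, so the signal that was left in W3-HM, 0.413 of the W3-WT level, was not divided among exons, and exons 6 and 7 were not measured apart. The related scaffolds did not pass the threshold. *Shank1* had a log2 fold change of 0.07 (SE 0.06, adjusted *p* = 0.935) and *Shank3* of 0.07 (SE 0.07, adjusted *p* = 0.942).

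Of 36 postsynaptic scaffold genes tested, *Shank2* itself was the only one past the threshold, and the median log2 fold change of the list was 0.02, against 0.00 over all genes tested. *Homer1*, whose long protein forms bind Shank and whose short form is induced by activity, was at 5939, 6071, 5949, 7957 and 8480.3 in W3-WT and 7731, 8798, 7109, 10632 and 9943 in W3-HM. The groups overlapped, since the 2 highest W3-WT mice exceeded the 2 lowest W3-HM mice, and its log2 fold change of 0.36 (SE 0.13, adjusted *p* = 0.588) did not pass. This call depended on the model, since in an alternative limma fit with the replicate number as a block the adjusted *p* value of *Homer1* was 0.0225. The ionotropic receptors gave small values. None of the 19 AMPA receptor and auxiliary subunit genes, the 7 NMDA receptor genes or the 9 kainate and delta receptor genes passed, and the medians of these lists were 0.04, 0.04 and 0.06. Without W3-HM replicate 5 the first was 0.01 and the second -0.04, without W3-HM replicate 3 the second was 0.07, and without W3-WT replicate 1 or 3 the first was 0.02. Members with an unadjusted *p* value under 0.05 numbered 1, 1 and 2 above W3-WT and 0, 1 and 0 below, where 2.91% of all genes tested were above and 3.37% below. *Grin1*, the obligatory NMDA receptor subunit, had a log2 fold change of -0.10 (SE 0.04, adjusted *p* = 0.656). *Grin2b*, the subunit that predominates in the young cortex, had 0.14 (SE 0.06, adjusted *p* = 0.738), with each of the 5 W3-HM mice above the highest W3-WT mouse.

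Among the 7 metabotropic glutamate receptor genes tested, *Grm2* alone passed the threshold. It encodes a group II receptor, coupled to Gi and found mostly on presynaptic and extrasynaptic membranes. Its counts were 1930.3, 2219, 2359.9, 1805 and 2021 in W3-WT and 1609, 1496, 1660.4, 1299 and 1331 in W3-HM. The highest W3-HM mouse was at 1660.4 and the lowest W3-WT mouse 1805, so the groups were apart by a narrow gap. The log2 fold change was -0.48 (SE 0.08, adjusted *p* = 0.0352). *Grm5*, a receptor to which Homer connects Shank2, lay on the other side of 0 and did not pass, with 0.12 (SE 0.07, adjusted *p* = 0.901). *Grm3*, the other group II receptor, had 0.11 (SE 0.07, adjusted *p* = 0.908).

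*Lynx1* encodes a membrane-anchored protein of the Ly6 family that binds nicotinic acetylcholine receptors and is known as a brake on plasticity in the mature cortex. It had the smallest *p* value after *Shank2* and *Gm26793*. The W3-WT mice were at 14073, 14594, 15429, 13735 and 14875 and the W3-HM mice at 12178, 11695, 11879, 11515 and 12548. The spread within each group was small and the gap between them wide, and the gene fell by 17.7% (log2 fold change -0.28, SE 0.04, adjusted *p* = 0.0119). Of the 15 nicotinic receptor and Ly6 genes tested, no other passed. *Lypd1*, another Ly6 protein that binds these receptors, was higher in each W3-HM mouse than in any W3-WT mouse, at 2912, 2776, 3081, 2788 and 3001 against 2611, 2459, 2198, 2452 and 2529.7, with a log2 fold change of 0.25 (SE 0.06, adjusted *p* = 0.21). *Ly6h* had 0.13 (SE 0.05, adjusted *p* = 0.621) and *Chrnb3*, a receptor subunit of low level here, -0.63 (SE 0.23, adjusted *p* = 0.608).

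*Lynx1* also stands in a list of 31 tested genes of the perineuronal net, of parvalbumin cells, of neurofilaments and of channels that accumulate late in neuronal maturation. Of these, 28 lay below W3-WT and 3 above, where 49.9% of all genes tested lay below. The median of the list was -0.15 against 0.00 over all genes. All gene lists of this report were chosen with earlier results of these data known. Their counts and medians are therefore descriptions and not tests. Only *Lynx1* passed the threshold. At an unadjusted *p* value under 0.05, 9 were below W3-WT and 0 above, against 3.37% and 2.91% of all genes tested. The second-smallest *p* value belonged to *Cplx1*, the complexin of fast synapses, at 15186, 16206, 16851, 15099 and 15938 in W3-WT and 14209, 13905, 14428, 13547 and 13029 in W3-HM. Again the groups did not overlap, and the log2 fold change was -0.20 (SE 0.04, adjusted *p* = 0.18). The heavy and medium neurofilament genes *Nefh* and *Nefm* had -0.29 (SE 0.08, adjusted *p* = 0.32) and -0.23 (SE 0.07, adjusted *p* = 0.533). *Pvalb*, named here after its values were seen, had -0.29 (SE 0.10, adjusted *p* = 0.621), with 586, 741, 742, 709.5 and 591 in W3-WT and 597, 611, 614, 535 and 418 in W3-HM, which overlapped. Taking for each mouse the median over the list of its log2 difference from the W3-WT mean, the W3-HM mice lay between -0.17 and -0.07 and the W3-WT mice between -0.03 and 0.09, with no overlap. Below, these are called the late-maturing genes, as the name of the list only. The name is not borne out as a rise with age after 3 weeks in these data, since from W3-HT to W12-HT mice the median of its members changed by -0.05.

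**Figure D2:**
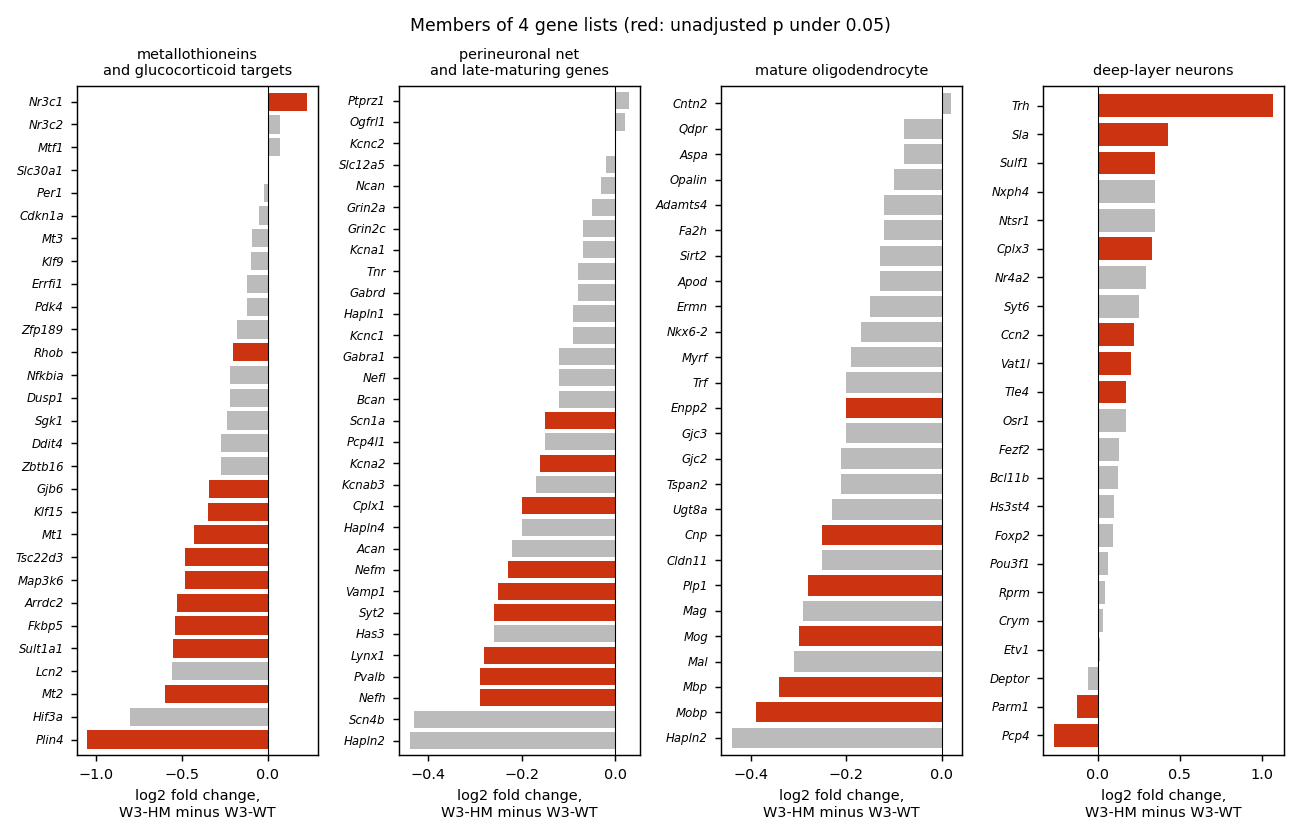
Log2 fold change, W3-HM minus W3-WT, of every tested member of 4 gene lists, with 1 bar per gene, in red where the unadjusted *p* value was under 0.05 and in grey otherwise; the panels have different horizontal scales. Most bars point to lower values in the first 3 panels and to higher values in the deep-layer panel, with *Trh* the longest there and *Pcp4* the longest in the other direction.

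*Mt1* and *Mt2* encode the widely expressed metallothioneins, small cysteine-rich proteins that bind zinc and copper, and both were lower. *Mt2* was at 1713, 1885, 1842, 1429.5 and 1468 in W3-WT and 1055, 913, 1025, 1207 and 1294 in W3-HM (log2 fold change -0.60, SE 0.09, adjusted *p* = 0.0192). *Mt1* was at 4148, 4345, 4075, 4130.1 and 3906 in W3-WT and 2783, 2676, 2996, 3680.4 and 3205 in W3-HM (log2 fold change -0.43, SE 0.08, adjusted *p* = 0.0352). In both genes W3-HM replicates 4 and 5 were the closest to the W3-WT mice. *Mt3*, the form that is mainly neural, is their neighbour on chromosome 8 and had a log2 fold change of -0.09 (SE 0.05, adjusted *p* = 0.882), with overlapping groups.

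*Mt1* and *Mt2* are textbook targets of the metal-responsive factor MTF-1 and of the glucocorticoid receptor. Because both genes moved, their promoters are shown with that of *Mt3*, from RefSeq on GRCm38.p6, all on the plus strand of chromosome 8, as the 250 bases before and the 30 bases after the start that RefSeq lists. The capitals mark the core of the metal response element, TGCACNC or TGCGCNC, on either strand, where matches of the 2 forms may overlap.
Mt2, chr8:94172368-94172647: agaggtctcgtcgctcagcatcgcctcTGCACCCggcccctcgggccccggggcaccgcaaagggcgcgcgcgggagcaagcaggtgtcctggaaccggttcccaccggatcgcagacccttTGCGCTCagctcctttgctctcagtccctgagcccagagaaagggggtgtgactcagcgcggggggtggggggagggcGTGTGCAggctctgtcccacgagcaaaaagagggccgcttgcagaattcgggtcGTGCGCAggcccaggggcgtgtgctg
Mt1, chr8:94178839-94179118: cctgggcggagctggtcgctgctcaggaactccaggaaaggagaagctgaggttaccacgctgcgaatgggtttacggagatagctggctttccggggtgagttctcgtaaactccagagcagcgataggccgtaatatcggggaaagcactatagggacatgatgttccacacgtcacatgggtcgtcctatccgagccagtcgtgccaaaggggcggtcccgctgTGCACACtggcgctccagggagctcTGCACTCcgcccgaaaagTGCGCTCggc
Mt3, chr8:94152357-94152636: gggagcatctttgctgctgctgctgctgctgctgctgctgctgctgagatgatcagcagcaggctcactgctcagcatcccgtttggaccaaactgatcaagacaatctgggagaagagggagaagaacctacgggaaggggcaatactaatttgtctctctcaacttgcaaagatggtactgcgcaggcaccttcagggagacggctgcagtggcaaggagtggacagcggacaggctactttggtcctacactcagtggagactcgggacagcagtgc
These letters occur 4 times in the *Mt2* window, 3 times in that of *Mt1* and 0 times in that of *Mt3*. Of 32851 RefSeq promoter windows of this length, 24.1% held at least 1 match and 1.73% at least 3. Of the 13 genes past the threshold, 7 had an entry there, and 4 of these held a match, *Hrk* and *Grm2* with 1 each besides the metallothioneins. A match is a description of the sequence, and binding was not measured. Sites outside these windows were not counted, and whether the listed start is the one used in this tissue was not tested.

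The list that joins metallothioneins with known glucocorticoid targets had 29 genes tested, of which 26 lay below W3-WT and 3 above. The median was -0.24, and this list too was chosen with earlier results of these data known. Past the threshold were *Mt1* and *Mt2*. With an unadjusted *p* value under 0.05, 11 genes lay below and 1 above, against 3.37% and 2.91% of all genes tested. The 1 above was *Nr3c1*, the glucocorticoid receptor itself, named after its value was seen. *Fkbp5*, a co-chaperone that the receptor induces, was at 1905, 2257, 1784, 1419.6 and 1949 in W3-WT and 1078, 1301, 1061, 1162 and 1890.4 in W3-HM. Here 4 of the 5 W3-HM mice lay below every W3-WT mouse and replicate 5 lay among them (log2 fold change -0.54, SE 0.14, adjusted *p* = 0.293). *Tsc22d3*, the leucine zipper protein induced by glucocorticoids, was chosen after its values were seen, and showed the same pattern, at 2872, 3135, 3213, 2113 and 3334 against 2019, 1913, 1953, 1884 and 2750.5 (log2 fold change -0.48, SE 0.13, adjusted *p* = 0.409). *Gjb6*, an astrocyte connexin, had -0.34 (SE 0.09, adjusted *p* = 0.353). The median of the list in each mouse ran from -0.50 to -0.29 in 4 W3-HM mice and was 0.04 in replicate 5, and it ran from -0.21 to 0.08 in W3-WT. Neither the hour of dissection nor a hormone level was used here.

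**Figure D3:**
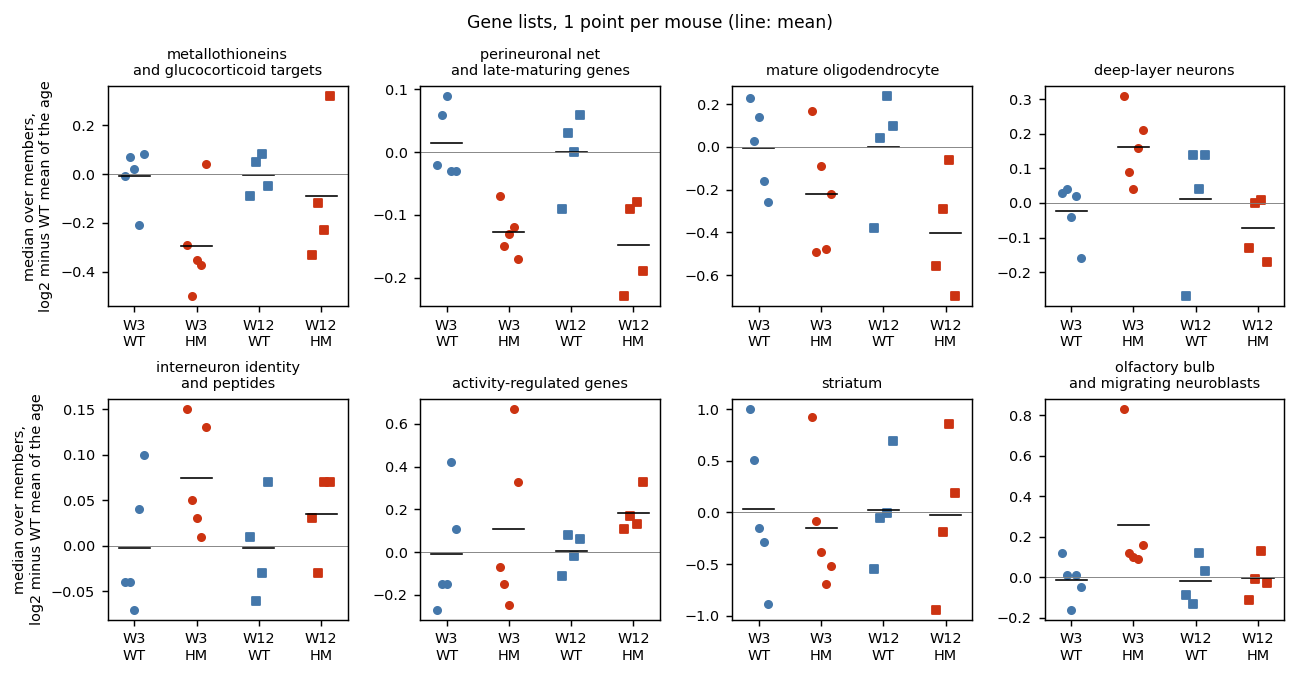
For 8 gene lists, the median over the members of the log2 difference from the wild-type mean of the same age, with 1 point per mouse (5 at W3 as circles, 4 at W12 as squares; wild type in blue, HM in red; lines are group means); the panels have different vertical scales. At W3 the late-maturing genes do not overlap between the genotypes, the deep-layer genes meet at 0.04, the glucocorticoid list overlaps through 1 W3-HM mouse at 0.04, and 1 W3-HM mouse stands apart at 0.83 for the olfactory bulb genes.

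*Hrk*, which encodes the BH3-only, death-promoting protein Harakiri, rose by 33.3%. It was at 2170.2, 2256, 1948, 2500.4 and 2397 in W3-WT and 2674, 3118, 2948, 2994 and 3268 in W3-HM (log2 fold change 0.41, SE 0.06, adjusted *p* = 0.0156). Of the 21 BCL-2 family and caspase genes tested it was the only one past the threshold, and the median of the list was 0.02. *Pmaip1*, another BH3-only gene, had -0.48 (SE 0.19, adjusted *p* = 0.668). *Ccnd1*, cyclin D1 of the G1 phase, was lower at 987, 935, 1011, 773 and 832 in W3-HM against 1299, 1182, 1228, 1212 and 1185 in W3-WT (log2 fold change -0.43, SE 0.07, adjusted *p* = 0.0352). No other of the 20 cyclin and cell cycle genes tested passed or was at an unadjusted *p* value under 0.05.

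*Nfib*, a nuclear factor I transcription factor of cortical development, had the smallest change among the 13, from 3333 ± 99 (SD, n = 5) in W3-WT to 3814 ± 88 (SD, n = 5) in W3-HM (log2 fold change 0.19, SE 0.03, adjusted *p* = 0.0352). The lowest W3-HM mouse was at 3708 and the highest W3-WT mouse at 3453. Among 30 NFI and cortical transcription factor genes tested, 24 lay above W3-WT, with a median of 0.03. Against 2.91% above and 3.37% below over all genes tested, 4 were above at an unadjusted *p* value under 0.05 and 0 below. After *Nfib* these were *Zfpm2*, *Tle4* and *Mef2c*, with 0.25 (SE 0.09), 0.17 (SE 0.06) and 0.11 (SE 0.04) and adjusted *p* values of 0.608, 0.621 and 0.672.

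*Rxfp1*, the relaxin receptor, was higher, at 846, 829.6, 903, 958 and 906 in W3-HM against 682, 759, 647, 654 and 668 in W3-WT (log2 fold change 0.38, SE 0.07, adjusted *p* = 0.0352). It stands in the list of interneuron genes, of which 30 were tested and no other passed, with a median of 0.02. The peptide genes of this list went both ways. *Vip* was at 1355, 1528, 1491, 1523 and 1343 in W3-HM and 1027, 1098, 1118, 1392 and 1254 in W3-WT (log2 fold change 0.30, SE 0.07, adjusted *p* = 0.268), and *Sst* had -0.16 (SE 0.07, adjusted *p* = 0.704). *Nos1*, neuronal nitric oxide synthase, had 0.33 (SE 0.08, adjusted *p* = 0.29). The level of a gene in bulk tissue cannot tell fewer cells of a type from less RNA in each cell.

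Genes of deep-layer neurons lay mostly above W3-WT, 20 of the 23 tested, with a median of 0.17. None passed the threshold. With an unadjusted *p* value under 0.05, 7 lay above and 2 below, against 2.91% and 3.37% of all genes tested. The median in each mouse was 0.04 to 0.31 in W3-HM and -0.16 to 0.04 in W3-WT, values that meet at 0.04 after rounding. *Sla*, an adaptor of receptor signalling, was at 515, 553, 485, 528 and 699.7 in W3-HM and 389, 418, 351, 435 and 459.7 in W3-WT, without overlap (log2 fold change 0.43, SE 0.10, adjusted *p* = 0.21). *Cplx3*, the complexin of the subplate, had 0.33 (SE 0.10, adjusted *p* = 0.441). *Pcp4*, a calmodulin-binding protein of layer 5, had the opposite sign, -0.27 (SE 0.06, adjusted *p* = 0.16). Among 18 upper-layer genes the median was -0.03.

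*Klhdc7a*, *Krt80* and *Aldh1a1* complete the genes past the threshold, all 3 lower. *Klhdc7a*, a kelch-domain gene, was at 643, 667, 633, 455 and 521 in W3-WT and 422, 362, 356, 371 and 407 in W3-HM (log2 fold change -0.59, SE 0.10, adjusted *p* = 0.0352). *Krt80*, a type II keratin, was at 201, 248, 215, 269 and 150.1 in W3-WT and 139, 111, 125, 135 and 122 in W3-HM (log2 fold change -0.75, SE 0.13, adjusted *p* = 0.0352). In both genes the W3-WT mice varied more than the W3-HM mice, with an SD of 91.3 against 29.2 and of 45.8 against 11. *Aldh1a1*, which makes retinoic acid from retinaldehyde, was at 1377 ± 97 (SD, n = 5) in W3-WT and 1075 ± 81.1 (SD, n = 5) in W3-HM (log2 fold change -0.36, SE 0.06, adjusted *p* = 0.0355).

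The next 17 genes by *p* value, to make 30, did not pass, with adjusted *p* values from 0.0702 to 0.164. Higher in W3-HM were *Inhba*, a subunit of activin that neuronal activity induces (log2 fold change 0.43, SE 0.09), *Nnat*, an imprinted gene of immature neurons (0.42, SE 0.08), and *St8sia2*, which builds polysialic acid on NCAM in young neurons (0.65, SE 0.14). *Trh*, the precursor of thyrotropin-releasing hormone, was at 94.6, 40.1, 46.4, 49 and 57.5 in W3-HM and 24.6, 37.6, 16.7, 31.1 and 23 in W3-WT (1.07, SE 0.23), and its highest mouse, W3-HM replicate 1, is the one that stood apart for the olfactory bulb genes. *Cacna1s*, a calcium channel best known from skeletal muscle, was at 28, 31.5, 36, 24.4 and 45.8 against 16.5, 13.9, 8.24, 8.78 and 19.2 (1.29, SE 0.27). Lower were *Sdc4*, a heparan sulfate proteoglycan (-0.34, SE 0.06), *Rin2*, which acts on the small GTPase Rab5 (-0.42, SE 0.08), *Diras2*, a Ras-like GTPase (-0.17, SE 0.04), and *Tph2*, the serotonin-synthesizing enzyme of neurons (-0.95, SE 0.21). *Tph2* was at 11.5 to 23.3 in W3-HM and 27.4 to 40.9 in W3-WT, low levels that do not overlap.

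The 42 activity-regulated genes tested had a median of 0.09, with 30 above W3-WT and 12 below, none past the threshold. Against 2.91% above and 3.37% below over all genes tested, 4 of the 42 were above and 1 below at an unadjusted *p* value under 0.05. Their median varied widely among mice of 1 genotype, from -0.27 to 0.42 in W3-WT and from -0.25 to 0.67 in W3-HM, and replicate 4 was the highest in both. The median of the list turned to -0.03 without W3-HM replicate 4. It was 0.01, 0.03 or 0.20 without W3-WT replicate 1, 3 or 4, and 0.17 without W3-HM replicate 2 or 3.

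Genes of oligodendrocytes, their precursors and astrocytes lay mostly below W3-WT, and none passed the threshold. Of 26 mature oligodendrocyte genes tested, 25 lay below W3-WT with a median of -0.20. Of these, 6 had an unadjusted *p* value under 0.05, where 3.37% of all genes tested were below with such a value. *Mbp*, myelin basic protein, was at 70141, 60159, 65685, 53163 and 58275 in W3-WT and 64338, 38097, 55475, 36955 and 53513 in W3-HM (log2 fold change -0.34, SE 0.13, adjusted *p* = 0.672), and the 2 lowest were W3-HM replicates 2 and 4. *Mobp* had -0.39 (SE 0.14, adjusted *p* = 0.608). The median of the list by mouse ran from -0.49 to 0.17 in W3-HM and from -0.26 to 0.23 in W3-WT, a wide overlap, and replicate 1 was the highest in both. The same 2 mice had the highest medians of the striatal genes in their groups, and the part of this in the result was not tested. Of 15 oligodendrocyte precursor genes 13 lay below (median -0.15), and of 18 astrocyte genes 15 lay below (median -0.06). The medians of these 3 lists were -0.13, -0.06 and -0.03 without W3-HM replicate 2, that of the precursor genes -0.08 without W3-WT replicate 5 and that of the astrocyte genes -0.10 without W3-HM replicate 5. *Fgfr3*, an astrocyte-enriched growth factor receptor, was at 4277, 4443, 4474, 3995 and 4220.2 in W3-WT and 3337, 3220, 3673, 3822 and 3992 in W3-HM, adjacent but without overlap (log2 fold change -0.25, SE 0.07, adjusted *p* = 0.357). Microglial genes had a median of 0.00 over 18 and endothelial and mural genes -0.02 over 20.

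Medians of several larger lists lay near 0. The 83 cytosolic ribosomal protein genes had a median of -0.01 with 0 past the threshold, and 3 above and 0 below at an unadjusted *p* value under 0.05. The 78 genes of the respiratory complexes had -0.01, with 0 above and 1 below, and the 78 mitochondrial ribosomal protein genes 0.01, with 0 above and 1 below. The 15 mitochondrially encoded genes lay further from 0, at -0.07, with 12 below W3-WT and 0 at an unadjusted *p* value under 0.05. The 53 histone and DNA methylation enzymes had a median of 0.04, with 41 above W3-WT and 4 of these at an unadjusted *p* value under 0.05. The 43 chromatin remodelers had 0.03, with 32 above, and the 31 histone acetylation enzymes and readers 0.02, with 19 above. The inhibitory synapse list, 23 genes, had -0.02.

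Genes around *Shank2* differed between the groups in a stretch downstream of it. No gene of the deposited table within 5 Mb, tested or not, started more than 1299 kb downstream. The stretch therefore runs to the last gene listed on that side. Within 5 Mb of the *Shank2* start 98 other genes were tested, of which 2 passed, *Gm26793* and *Ccnd1*. Of the 98, 4 were above and 7 below W3-WT at an unadjusted *p* value under 0.05, where 2.91% of all genes tested were above and 3.37% below. Each of the 6 genes tested between 896 and 1299 kb downstream of the *Shank2* start was among these 11, whereas 0 of the 14 tested within 890 kb on either side were, *Cttn*, *Ppfia1*, *Fadd* and *Ano1* (named after their values were seen) included. The limits of this stretch were not set beforehand, so these counts describe where the differing genes lie and are not a test. *Gm26793*, annotated as antisense, lies on the minus strand from 144894560 to 144897461. It was listed at 2.13, 0, 3.15, 0.97 and 0.853 in W3-WT and at 72.4, 75.6, 78.1, 63 and 52.8 in W3-HM (log2 fold change 4.99, SE 0.31, adjusted *p* = 6.92e-08), so that it was nearly absent from one group and present in every mouse of the other. With values this near 0 in W3-WT the size depends on the offset, and with 10 added before the logarithm in place of 1 the log2 fold change was 2.77. It overlaps *Fgf15* on the other strand, a fibroblast growth factor gene, and the library kit named in the labels does not mark strand, so reads of the 2 genes cannot be told apart where they overlap. *Fgf15*, also named after its values were seen and under the minimum mean, was at 0, 0, 0, 0 and 0.804 in W3-WT and 3.58, 5.4, 13.4, 9.88 and 1.11 in W3-HM.

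Next came *Bc1*, a short non-coding RNA transcribed by RNA polymerase III and carried into dendrites, from 144914470 to 144914637 on the plus strand. It was at 279.8, 429, 405, 436 and 430.3 in W3-WT and 211, 216, 197, 232 and 119 in W3-HM, without overlap (log2 fold change -1.03, SE 0.20, adjusted *p* = 0.0702). The libraries were made from RNA purified by its poly-A tail, and how well they capture this short RNA was not tested. *LTO1* (0.33, SE 0.12, adjusted *p* = 0.646), *Tpcn2*, a lysosomal cation channel (-0.71, SE 0.18, adjusted *p* = 0.326), and *Mrgprf*, an orphan receptor (0.75, SE 0.19, adjusted *p* = 0.298), did not pass, and both signs occurred along the stretch. These 3 were named after their values were seen, as was *1810010D01Rik*, 1206 kb from the *Shank2* start and under the minimum mean, which was listed at 5.49, 5.44, 7.85, 6.68 and 5.21 in W3-WT and at 0 in all 5 W3-HM mice. Upstream, *Lrrc27* at -4789 kb (0.80, SE 0.15, adjusted *p* = 0.0711) and *Pnpla2*, the first enzyme of triglyceride breakdown, at -2547 kb (-0.50, SE 0.10, adjusted *p* = 0.0796) had the smallest *p* values of the 78 genes tested more than 890 kb upstream. Of these 78, 5 had an unadjusted *p* value under 0.05, a share similar to that over all genes tested, 1070 of 17051. The name of the line gives 129S4 as the donor of the allele, and the strain from which the DNA around *Shank2* came was not measured.

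**Figure D4:**
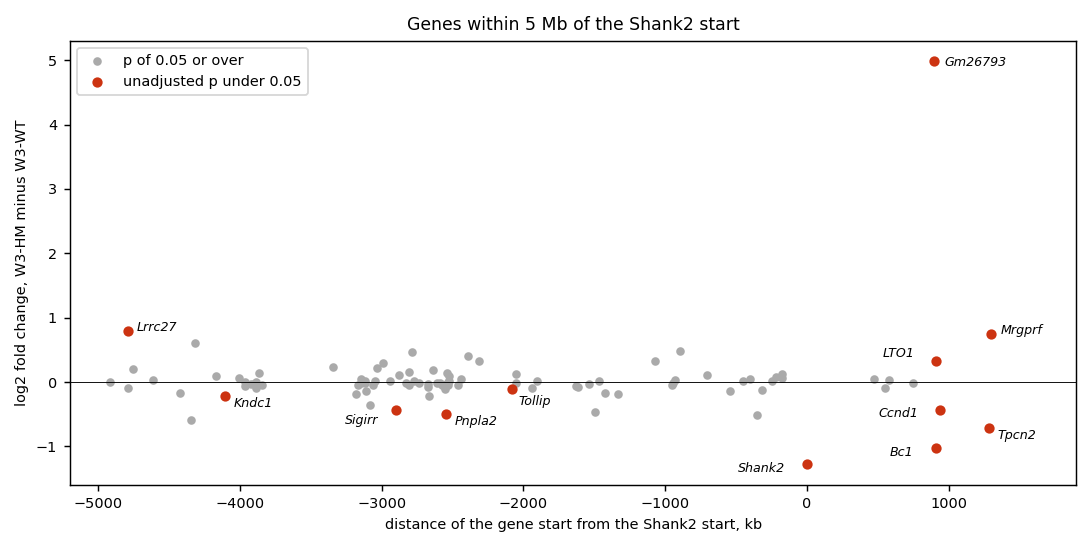
Log2 fold change, W3-HM minus W3-WT, of the 99 genes tested within 5 Mb of the *Shank2* start (*Shank2* included) against the distance of each gene's start from it in kb; red points have an unadjusted *p* value under 0.05. The 6 points at 896 to 1299 kb are all red and lie on both sides of 0, from -1.03 to 4.99.

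The differences of 3 weeks were set beside those of the 12-week mice, which share no animal with them. In a fit of all 27 mice, 54 of 17156 genes (0.315%) passed in W12-HM against W12-WT, and 10.8% had an unadjusted *p* value under 0.05 in either direction. All 13 genes past the threshold at W3 had the same sign at W12, 11 with an unadjusted *p* value under 0.05 and 6 past the threshold there, *Shank2*, *Gm26793*, *Lynx1*, *Hrk*, *Ccnd1* and *Krt80*. Leaving out *Shank2* and the genes within 5 Mb of it, 24 of the 30 genes with the smallest *p* values at W3 remained, of which 22 had the same sign at W12 and 16 (66.7%) the same sign with an unadjusted *p* value under 0.05. Over all genes tested at both ages, 57.6% had the same sign and 7.57% the same sign with such a *p* value. The spread behind the W12 *p* values was estimated over all 27 mice, those of W3 included. These *p* values are therefore not independent of the choice of genes at W3. *Lynx1* was at 12923, 13359, 13694 and 14132 in W12-WT and 11550.4, 11962, 12096 and 11361 in W12-HM (log2 fold change -0.20, SE 0.04, adjusted *p* = 0.027). *Hrk* was at 1785, 1781, 1560.5 and 1550.1 in W12-WT and 2153, 1957, 2028 and 2318 in W12-HM (log2 fold change 0.34, SE 0.07, adjusted *p* = 0.0405). In both genes the W12 groups did not overlap. *Rin2* and *Adck2* had the other sign at W12, with 0.04 and 0.08.

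**Figure D5:**
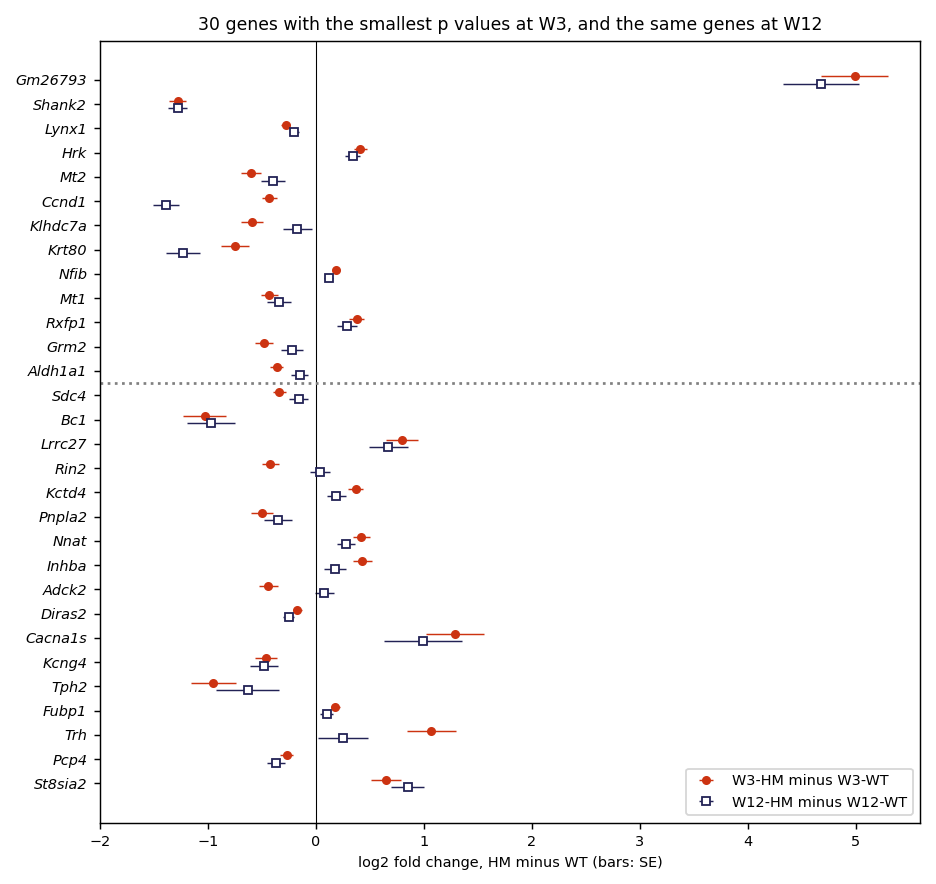
Log2 fold change against wild type, with its SE as a bar, of the 30 genes with the smallest *p* values at W3, in W3-HM (filled circles, 5 against 5 mice) and in W12-HM (open squares, 4 against 4 other mice); genes above the dotted line passed the threshold at W3. For 28 of the 30 the square lies on the same side of 0 as the circle, and *Ccnd1* and *Trh* are among those whose symbols lie far apart.

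The HM difference itself differed between the ages for 2 of 17156 genes (0.0117%). *Ccnd1* was at 1584, 1618, 1439 and 1467 in W12-WT and 660.1, 535, 703 and 459.7 in W12-HM, a W12 log2 fold change of -1.39 (SE 0.12), which is a difference of -0.96 from that of W3 (SE 0.15, adjusted *p* = 0.0241). *Rpl27*, a ribosomal protein gene named after its value was seen, had 0.21 (SE 0.07) at W3 and -0.44 (SE 0.08) at W12, a difference of -0.64 (SE 0.11, adjusted *p* = 0.0241). With 1 W3 mouse left out at a time, both calls were lost without W3-WT replicate 2, 3 or 4 or W3-HM replicate 1, 2 or 3, 1 was left without W3-HM replicate 4, and 5 genes passed without W3-HM replicate 5. For the lists, the median of the late-maturing genes was -0.15 at W3 and -0.16 at W12, that of the mature oligodendrocyte genes -0.20 and -0.41, that of the metallothioneins and glucocorticoid targets -0.24 and -0.11, and that of the deep-layer genes 0.17 and -0.04. The cytosolic ribosomal protein genes had -0.01 and -0.15. The differences of these medians between the ages were not tested.

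Values of the W3-HT mice, which share the W3-WT mice with the comparison above, are given side by side only. The HT and HM log2 fold changes were -0.50 and -1.28 for *Shank2*, 3.82 and 4.99 for *Gm26793*, -0.32 and -0.43 for *Ccnd1*, 0.14 and 0.19 for *Nfib*, 0.21 and 0.38 for *Rxfp1*, -0.82 and -1.03 for *Bc1* and -0.22 and -0.48 for *Grm2*. They were -0.07 and -0.28 for *Lynx1*, 0.06 and 0.41 for *Hrk*, -0.00 and -0.59 for *Klhdc7a*, -0.09 and -0.60 for *Mt2*, -0.06 and -0.43 for *Mt1*, -0.05 and -0.75 for *Krt80* and -0.09 and -0.36 for *Aldh1a1*. The medians of the late-maturing and the mature oligodendrocyte lists were 0.04 and 0.16 in W3-HT, against -0.15 and -0.20 in W3-HM. Striatal genes also differed in sign (HT 0.42, HM -0.15), and their part in these medians was not tested. Other lists shared the sign: deep-layer genes (HT 0.11, HM 0.17), cortical transcription factors (0.07, 0.03), methylation enzymes (0.06, 0.04) and glucocorticoid targets with metallothioneins (-0.07, -0.24). By mouse, the deep-layer median ran from 0.06 to 0.26 among heterozygotes, above the wild-type maximum of 0.04.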

How the data were processed

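RNA of single mice was sequenced from the medial prefrontal cortex (TruSeq RNA Sample Prep Kit v2). The authors estimated abundances with Salmon 1.1.0 on GRCm38 and normalized them with DESeq2, given as 1.26.0 in R 3.6.2 in the submitters' processing notes. The deposited signal is the normalized count per gene of 27 mice scaled together. Whole numbers were 0.328% of the values, all of them 0, so no count test was run. Of 18757 genes, 18744 matched GENCODE M21.

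Log2 of the value plus 1 was fitted with limma 3.58.1 in R 4.3.3, with a variance trend, keeping genes whose W3-WT and W3-HM mice averaged 10 or more. The 3 genotypes of W3 were fitted together, and W12 and the ages in a fit of 27 mice. The threshold was an adjusted *p* value of 0.05. Single genes had two-sided exact permutation tests (252 divisions of the mice). No pair of W3 mice had identical values. Labels do not give litters.

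Named were *Shank1* to *Shank3*, genes past the threshold, the 30 smallest *p* values, in each of 37 lists the 4 smallest *p* values and 3 highest means and the 5 smallest near *Shank2*. Genes picked otherwise are marked so in the text. Not every gene that this rule names is reported here. The members, lists and tests were chosen with earlier results of these data known. Alternatives covered the offset, filters, mice fitted, scaling, weights, threshold and mice left out. Leaving out both mice with the lowest sample weights was added after seeing the data.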

Additional observations from a re-analysis of the deposited data

Results flagged for a closer look

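Each gene named in the report was searched for a mouse that stood apart from the other 4 of its group, by the size of its gap to the nearest of them. Chance gives such a mouse in about 1 in 20 groups, and of 162 groups searched, gene lists included, 17 had one. W3-HM replicate 5 was this mouse most often. It was at 4838 for *Shank2*, where the other 4 lay between 3502 and 3869, at 20592 for *Grin1*, at 3660.4 for *Sst*, at 978 for *Rpl27*, at 1890.4 for *Fkbp5* and at 2750.5 for *Tsc22d3*. It also had the lowest sample weight of the W3 mice, 0.475. W3-HM replicate 1 was the highest for *Pcp4*, at 4189.8, and for the olfactory bulb list, with a median of 0.83 where the others lay between 0.09 and 0.16. The median log2 fold change of that list was 0.22, and 0.08 without this mouse. W3-HM replicate 3 was the highest for *Mt3*, at 4096.

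Among W3-WT mice, replicate 1 stood apart for *Bc1* (279.8), *St8sia2* (209), *Nos1* (2013) and *Ppfia1* (999), replicate 4 for *Sdc4* (1608) and *Rin2* (951), and replicate 5 for *Grm5* (5111) and *Fgf15* (0.804, where the others were listed at 0). For *Bc1*, this W3-WT mouse was the lowest of its group and still above every W3-HM mouse.

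The difference between HM and wild type was not the same at both ages, by a test of that difference, for *Ccnd1* (-0.96, W12 minus W3, on the log2 scale) and *Rpl27* (-0.64).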

How the results depend on the processing

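Of the 13 genes past the threshold, the count was 2 when only W3-WT and W3-HM mice were fitted, 27 with limma sample weights, 22 at an adjusted *p* value under 0.1 and 5 with a fold change over 1.5 required as well. Other settings that kept all mice gave 10 to 19. With 1 mouse left out it ranged from 2 to 16, and the count of genes whose HM difference changed with age from 0 to 5. Without both mice of lowest sample weight, a setting chosen after seeing the data, it was 16, of which 7 were among the 13. The median of the late-maturing genes ranged from -0.20 to -0.11 with 1 mouse left out. The sign turned in such fits, without passing the threshold, for *Ppfia1* (-0.16 to 0.02), *Fadd* (-0.07 to 0.14), *Ano1* (-0.13 to 0.08), *Slc17a7* (-0.03 to 0.05) and *Gad2* (-0.05 to 0.02). The causes were not tested. No depth is known, so counting error is not given.

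The labels number the mice of each genotype alike and name no litter. Deviations of same-numbered W3-WT and W3-HM mice correlated with r of 0.242, 0.045, 0.006, 0.207 and 0.261 across genes, and 3 of the 5 W3-WT mice correlated best with their own number. Because 2 of these 5 values lay near 0, the numbers were not taken to pair the mice. With the replicate number as a block, 14 genes passed, 10 of them among the 13, *Krt80* (adjusted *p* = 0.0573), *Nfib* (0.0789) and *Rxfp1* (0.0677) did not, *Lrrc27*, *Inhba*, *Homer1* and *Gjb6* did, and 3 genes differed between the ages.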
